A study of Homo sapiens with 8 samples.

Results

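The UFMylation pathway attaches the ubiquitin-like protein UFM1 to other proteins, and 6 of its genes were followed here through a genome-wide CRISPRi growth screen: UFM1, UFC1, UFL1, DDRGK1, CDK5RAP3 and UFSP2. They were chosen by name, as the gene symbols in the sgRNA names, with no measured value in the rule, and make up 6 of the 18903 genes tested. The count table lists 60 sgRNAs of the primary promoter for them, of which 30 had no count in any of the 8 libraries and 30, 5 per gene, were kept. In CRISPRi, a catalytically inactive Cas9 fused to the KRAB repressor is brought to a promoter by an sgRNA and lowers transcription there, so cells whose targeted gene is needed for growth are lost from the pool.

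All libraries came from genomic DNA of K562, an established human leukemia line with dCas9-KRAB and stable expression of uL16, the ribosomal protein of the large subunit that RPL10 encodes. The 4 groups, of 2 libraries each, were mutant uL16 at day 9, mutant uL16 at day 0, wild-type uL16 at day 9 and wild-type uL16 at day 0. All groups shared a 3-day puromycin selection (1 µg/ml), and the design text counts 10 cell doublings to the end of the screen, which it describes as a search for factors that act on defective large subunits. The sample titles call the mutant line delta and the labels describe the mutation no further, nor do they say whether a line is 1 clone or whether the replicates were separate cultures, so p-values measure the spread between these libraries, which may be technical.

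UFM1 is conjugated by an enzyme cascade like that of ubiquitin: UFC1 carries it, and the ligase UFL1 transfers it together with DDRGK1, which anchors the ligase at the membrane of the endoplasmic reticulum, and CDK5RAP3, which directs it to its substrates. The proteases UFSP1 and UFSP2 mature UFM1 and remove it again. The best known substrate is RPL26, a protein of the large ribosomal subunit that is modified near the exit tunnel on ribosomes bound to the endoplasmic reticulum, where the modification takes part in releasing the subunit from the translocon and in clearing arrested chains.

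Of the 6 genes, 2 were depleted by day 9: sgRNAs against UFL1 and DDRGK1 fell in both lines, to 38.0% and 41.8% of their day 0 level in mutant cells and to 55.1% and 56.5% in wild-type cells. Of all genes tested, 8.53% were lower in mutant cells and 8.7% in wild-type cells at the same threshold, an adjusted p under 0.05. For UFM1, UFC1, CDK5RAP3 and UFSP2, no change passed the test in either line. For UFL1 and DDRGK1 the fitted loss was larger with mutant uL16, but the difference between lines did not pass the test over all genes.

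Library totals ranged from 39233340 to 143585751 reads, with a median of 331 to 1224 counts per kept sgRNA and 1781 to 6476 per gene. The median standard deviation between replicates over all genes, on the log2 scale, was 0.0806 at day 9 and 0.0499 at day 0 in mutant cells. In wild-type cells it was 0.0873 at day 9 and 0.0606 at day 0. The 1894 non-targeting sgRNAs kept had a median log2 change, day 9 over day 0, of 0.03 in mutant cells and 0.04 in wild-type cells. Sequenced reads were PCR products without molecular identifiers, so depth sets counting error only. RNA and protein were not measured, so neither the extent of each knockdown nor the cell identity of K562 can be read from these counts.

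The promoters of UFL1 and CDK5RAP3 are shown because CRISPRi acts at the start of transcription and because, of these members of one ligase complex on chromosomes 6 and 17, UFL1 sgRNAs fell while no change of CDK5RAP3 passed the test. Each line holds the 250 bases before the start of the gene in RefSeq (GRCh38.p14, the plus strand for both), at chr6:96521556-96521805 and chr17:47970278-47970527, 5′ to 3′. Capitals mark matches to GGGCGG, the GC box, on either strand.
UFL1: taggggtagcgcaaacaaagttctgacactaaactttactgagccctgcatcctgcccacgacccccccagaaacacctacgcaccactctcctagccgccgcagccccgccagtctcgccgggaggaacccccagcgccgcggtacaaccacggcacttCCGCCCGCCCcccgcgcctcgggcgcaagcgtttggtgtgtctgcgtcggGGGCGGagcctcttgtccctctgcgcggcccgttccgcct
CDK5RAP3: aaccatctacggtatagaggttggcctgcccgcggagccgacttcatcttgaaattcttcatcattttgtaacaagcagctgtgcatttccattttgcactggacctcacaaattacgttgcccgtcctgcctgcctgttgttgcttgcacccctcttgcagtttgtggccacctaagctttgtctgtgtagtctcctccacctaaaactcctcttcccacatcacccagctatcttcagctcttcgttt
The UFL1 promoter held 3 GC boxes, of which the first and the second overlap, and the CDK5RAP3 promoter held none of the motifs searched. The UFL1 promoter had 60 GG pairs counted on both strands, the letters that a Cas9 target needs beside it, and 26 CpG, against 31 and 7 in the CDK5RAP3 promoter and medians of 48 and 11 over 35116 promoters. UFSP2, for which no change passed the test, had 40 GG pairs and 23 CpG, and UFM1 28 and 9. The motifs searched on both strands were GGGCGG, present in 42.6% of those promoters, CCAAT in 32.0%, TATAAA in 10.7% and CCGGAAG in 8.52%. The UFSP2 promoter held 2 GC boxes, and the UFM1 promoter 1 GC box, 1 CCAAT and 2 TATAAA, with no overlap between motifs. Promoters were matched for 4 of the 6 genes, and DDRGK1 and UFC1 are only named. Positions in the sgRNA names were used only as distances between sgRNAs, since no file states their build. Where the sgRNAs lie within these windows was therefore not analysed. Whether motifs, GG pairs or CpG of a promoter bear on the loss of its sgRNAs was not tested.

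Values for a gene are its 5 sgRNA counts summed and given as CPM, the count scaled to a common effective library size, and a change is the log2 ratio of day 9 over day 0. UFM1 (NCBI gene 51569, chromosome 13), the modifier itself, had 39.7 and 45.4 CPM in mutant cells at day 9, against 47.5 and 47.1 CPM at day 0. In wild-type cells it had 42.8 and 37.9 CPM at day 9, against 46.7 and 46.5 CPM at day 0. Both day 9 libraries were below both day 0 libraries in each line, but the changes of -0.15 (95% interval -0.37 to 0.07, adjusted p = 0.555) in mutant cells and -0.21 (-0.43 to 0.02, adjusted p = 0.307) in wild-type cells did not pass the test. Separation of this kind was met by 24.2% of all genes in mutant cells and by 23.7% in wild-type cells.

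UFC1 (NCBI gene 51506, chromosome 1), the conjugating enzyme, had 45.3 and 39.04 CPM in mutant cells at day 9, against 42.5 and 41.1 CPM at day 0. Its wild-type libraries had 40.2 and 44.6 CPM at day 9, against 42.3 and 36.5 CPM at day 0. The days overlapped in both lines, and the changes were 0.01 (-0.23 to 0.25) in mutant cells and 0.11 (-0.13 to 0.35) in wild-type cells. Both intervals lie above the fitted changes of UFL1 and DDRGK1 given next, and the knockdown that these sgRNAs reached was not measured.

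UFL1 (NCBI gene 23376, chromosome 6), the ligase, had 19.1 and 15.1 CPM in mutant cells at day 9, against 43.5 and 45.6 CPM at day 0. The wild-type line had 23.8 and 21.6 CPM at day 9, against 41.2 and 41.1 CPM at day 0. The days did not overlap in either line. The day 9 values of the mutant line lay below those of the wild-type line, but that comparison did not pass edgeR's test. The share of all genes with this order of the lines was not counted. The change was -1.40 ± 0.14 (SE, 2 libraries per group, adjusted p = 1.13e-09), a 2.63-fold loss, in mutant cells, and -0.86 ± 0.14 (adjusted p = 1.17e-05), a 1.81-fold loss, in wild-type cells.

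DDRGK1 (NCBI gene 65992, chromosome 20), the membrane adaptor of the ligase, had 24.8 and 22.7 CPM in mutant cells at day 9, against 58.9 and 54.4 CPM at day 0. Values in wild-type cells were 31.1 and 31.0 CPM at day 9, against 54.7 and 55.3 CPM at day 0. As for UFL1, the days did not overlap, and both mutant libraries at day 9 were below both wild-type ones. That comparison of the lines did not pass edgeR's test either, and the share of all genes with this order was not counted. The change was -1.26 ± 0.11 (SE, adjusted p = 1.39e-10), a 2.39-fold loss, in mutant cells and -0.82 ± 0.11 (adjusted p = 7.84e-07), a 1.77-fold loss, in wild-type cells.

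CDK5RAP3 (NCBI gene 80279, chromosome 17), the third protein of the ligase complex, had 39.6 and 34.6 CPM in mutant cells at day 9, against 41.5 and 37.8 CPM at day 0. In the wild-type line it had 40.5 and 38.8 CPM at day 9, against 38.6 and 45.6 CPM at day 0. The days overlapped in both lines. Its changes were -0.10 (-0.34 to 0.15) in mutant cells and -0.09 (-0.33 to 0.16) in wild-type cells, and neither passed the test (adjusted p = 0.780 in mutant cells and 0.777 in wild-type cells).

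UFSP2 (NCBI gene 55325, chromosome 4), the protease that removes UFM1, had 66.8 and 63.4 CPM in mutant cells at day 9, against 59.0 and 57.8 CPM at day 0. Wild-type cells had 64.2 and 62.4 CPM at day 9, against 67.5 and 68.4 CPM at day 0. The days did not overlap in either line, with day 9 above day 0 in mutant cells and below it in wild-type cells. Day 9 lay wholly above day 0 in mutant cells for 23.5% of all genes, and the days were separated in opposite directions in the lines for 4.17%. Neither change passed the test, at 0.16 (-0.02 to 0.34, adjusted p = 0.392) in mutant cells and -0.10 (-0.28 to 0.08, adjusted p = 0.593) in wild-type cells. With limma on the mean log2 CPM of single sgRNAs, the mutant change turned to -0.11 (adjusted p = 0.781).

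**Figure D1:**
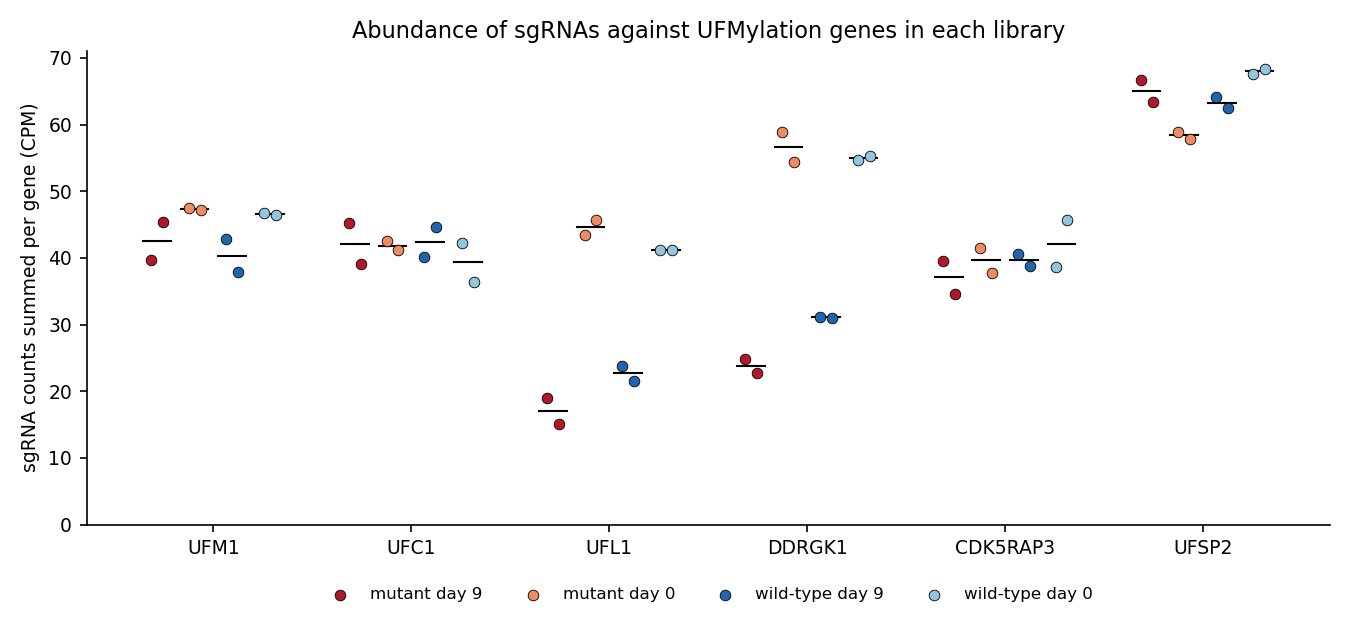
Summed sgRNA abundance (CPM, linear axis from 0) of the 6 genes in each of the 8 libraries, with points for libraries and short lines for the mean of the 2 replicates; mutant cells are in red and wild-type cells in blue, with day 9 in the darker shade. UFL1 lies at 15.1 and 19.1 CPM in mutant cells at day 9, against 43.5 and 45.6 CPM at day 0, while the CDK5RAP3 days overlap.

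Counted over the pathway, 2 of 6 genes were lower at an adjusted p under 0.05 in mutant cells, where 8.53% of all genes were, and 2 of 6 in wild-type cells, where 8.7% were. The same 2 genes, UFL1 and DDRGK1, were lower in both lines, as were 1323 of all 18903 genes. The median change of the 6 genes was -0.12 in mutant cells and -0.16 in wild-type cells, against 0.01 over all genes in each line. In mutant cells 4 of the 6 changes were below 0, and in wild-type cells 5, against 8872 and 8920 of all 18903 genes. The comparison of the lines, given further on, shares its libraries with the change in each line.

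From a list of UFMylation factors outside the 6, UFSP1, the second protease, and C1orf27 (ODR4), which holds UFSP2 at the endoplasmic reticulum, did not pass the test, with changes of -0.09 and -0.16 in mutant cells and 0.13 and 0.05 in wild-type cells. Of the 6 members, UFSP2 alone has sgRNAs within 1000 bases of another gene's, those of C4orf47 at 311 bases, whose changes were 0.05 in mutant cells and 0.11 in wild-type cells.

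**Figure D2:**
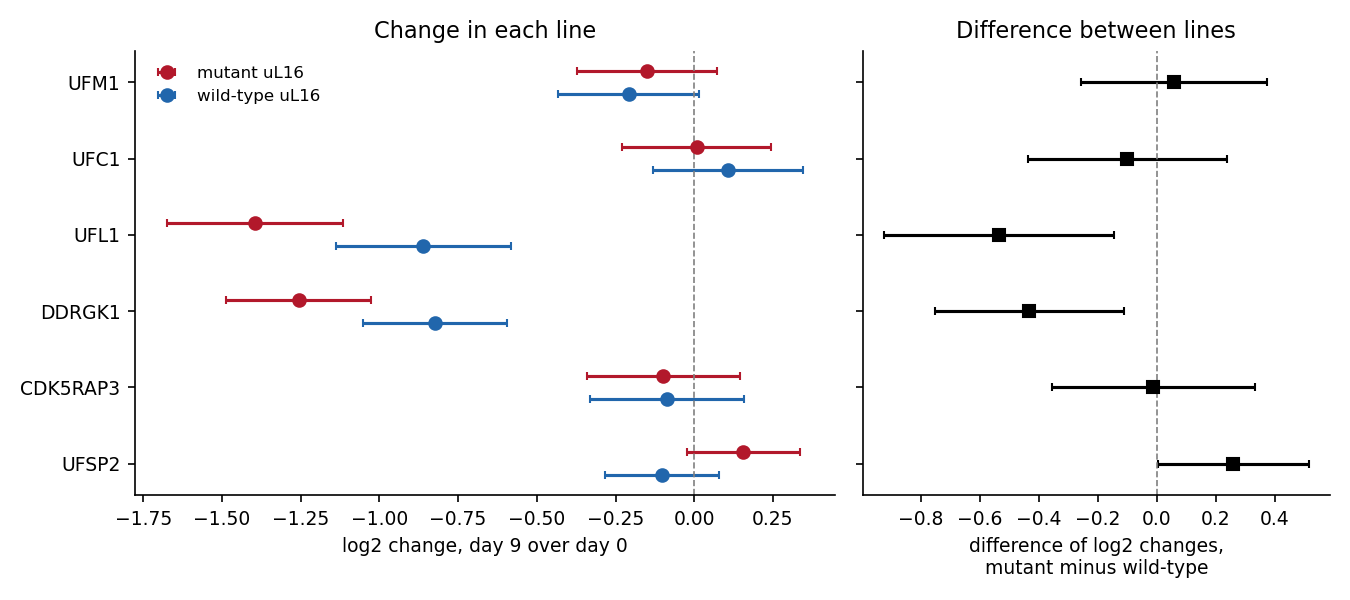
Log2 change of each gene, day 9 over day 0, in mutant and wild-type cells (left) and the mutant change minus the wild-type change (right), as fitted estimates with 95% intervals. The intervals of UFL1 and DDRGK1 lie below 0 in both lines, and the interval of the difference lies below 0 for UFL1 (-0.93 to -0.15) and DDRGK1 (-0.75 to -0.11) before any adjustment over genes.

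Whether a knockdown had another effect with mutant uL16 was tested as the difference of the 2 changes. None of the 6 genes passed it in edgeR's quasi-likelihood test, DESeq2 or limma, where 0.0159% of all genes passed in edgeR. At an unadjusted p under 0.05 the count was 3 of 6 in edgeR, against 1053 of 18903 genes (5.57%). UFL1 differed by -0.54 ± 0.19 (95% interval -0.93 to -0.15, unadjusted p = 0.00869, adjusted p = 0.883). DDRGK1 differed by -0.43 ± 0.16 (-0.75 to -0.11, unadjusted p = 0.00956, adjusted p = 0.883). Both values were below 0 in each of 19 alternative settings, in which the adjusted p ranged from 0.173 to 1.00 for UFL1 and from 0.144 to 1.00 for DDRGK1.

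UFSP2 differed the other way, by 0.26 (0.00 to 0.51, unadjusted p = 0.0467, adjusted p = 0.890), and UFM1, UFC1 and CDK5RAP3 by 0.06, -0.10 and -0.01. Within genes whose wild-type change was within 0.1 of UFL1's, the median difference was 0.03 and 4 of 191 (2.09%) lay lower than UFL1. For DDRGK1 9 of 199 (4.52%) lay lower. Both sets were chosen by the wild-type change, which is part of the difference, and were not matched on its standard error. The shares are therefore a description and not a test. On the scale of the screen, ZNF574, named in the title of the study, differed by -2.03 (adjusted p = 2.85e-07).

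In the direct comparison of mutant with wild-type cells at day 9, none of the 6 genes passed in edgeR, where 0.222% of genes did. At an unadjusted p under 0.05 the count was 2 of 6, against 2275 of all 18903 genes (12.0%). UFL1 was lower in mutant cells by 0.42 (adjusted p = 0.196) and DDRGK1 by 0.39 (adjusted p = 0.137) on the log2 scale. DESeq2 called both, with adjusted p of 0.0288 for UFL1 and 0.00480 for DDRGK1, and called 691 genes where edgeR called 42. UFL1 also passed without the most abundant sgRNA of each gene, at -0.73 (adjusted p = 0.0359), and no other setting called one of the 6. Over the 19 settings UFL1 ranged from -0.73 to -0.18, the smallest with 1 sgRNA kept of those that overlap (adjusted p = 0.757), and it was -0.25 without mutant day 9 replicate 2 (adjusted p = 0.491). At day 0, 0 of 6 genes passed in edgeR or DESeq2, as did 0% of all genes, and UFSP2 alone of the 6 had an unadjusted p under 0.05 (-0.22 ± 0.09, adjusted p = 1.00), as did 246 of all genes (1.30%).

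Single sgRNAs show how far a gene's total rests on few of them. In mutant cells 9 of the 30 sgRNAs were lower at an adjusted p under 0.05, where 5.09% of all sgRNAs were, with 5 of UFL1 and 4 of DDRGK1. In wild-type cells 5 were lower, where 5.21% of all were: 2 of UFL1, 2 of DDRGK1 and 1 of UFM1. Without either of the wild-type day 0 replicates the wild-type count was 2. The 5th to 95th percentile of the non-targeting sgRNAs ran from -0.47 to 0.46 in mutant cells and from -0.54 to 0.51 in wild-type cells.

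All 5 UFL1 sgRNAs fell in mutant cells, by 0.86 to 1.91 on the log2 scale, and all 5 were below 0 in wild-type cells, from -1.75 to -0.43. They lie within 58 bases and include 2 pairs 3 bases apart, 1 on each strand, and the sgRNAs of such a pair overlap. The sgRNA pair at the far end, at 55 and 58 bases from the first, changed by -1.91 and -1.57 in mutant cells, against -0.68 and -0.43 in wild-type cells. The remaining 3, at 0, 3 and 32 bases, changed by -0.86, -1.82 and -1.35 in mutant cells and by -0.75, -1.75 and -1.60 in wild-type cells. The difference between lines was thus -1.23 and -1.14 for the sgRNAs at 55 and 58 bases, and between -0.11 and 0.25 for the others. The setting with 1 sgRNA kept of those that overlap, chosen after seeing the data, dropped sgRNAs under 20 bases after another on the same strand. With it the gene-level difference of UFL1 was -0.39 (adjusted p = 0.941). No single sgRNA of the 30 passed the difference test.

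The 5 DDRGK1 sgRNAs, within 177 bases, changed by -0.64 to -2.09 in mutant cells and by -0.42 to -1.12 in wild-type cells, and 4 of 5 were lower in mutant than in wild-type cells. Of these 5, the sgRNAs at 137, 143 and 154 bases lie within 17 bases of each other, those at 137 and 154 on the same strand. With 1 sgRNA kept of those that overlap on a strand, only the sgRNA at 154 bases was dropped. Without that sgRNA, which was not lower in mutant cells, the gene-level difference of DDRGK1 was -0.62 (adjusted p = 0.830). The sgRNA at 137 bases had 2.80 and 1.85 CPM in mutant cells at day 9, against 10.9 and 8.64 CPM at day 0. In wild-type cells it had 3.62 and 4.72 CPM at day 9, against 8.17 and 7.40 CPM at day 0. The single sgRNA that was not lower in mutant cells, at 154 bases, changed by -0.91 in mutant cells and -1.12 in wild-type cells.

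The 5 UFM1 sgRNAs spread over 450 bases and did not go together. The 1 at 40 bases from the first changed by -0.69 (adjusted p = 0.151) in mutant cells and -1.15 (adjusted p = 0.00333) in wild-type cells. Its neighbour, 8 bases away on the opposite strand, changed by 0.37 in mutant cells and -0.66 in wild-type cells, and the outermost by -0.22 in mutant cells and 0.59 in wild-type cells. UFC1 sgRNAs ranged from -0.24 to 0.41 in mutant cells and from -0.09 to 0.60 in wild-type cells, and those of CDK5RAP3 from -0.35 to 0.37 and from -0.45 to 0.26. Of UFSP2, 1 sgRNA changed by -1.06 in mutant cells (adjusted p = 0.818) with a mean count of only 42.4, and the others by -0.23 to 0.35.

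**Figure D3:**
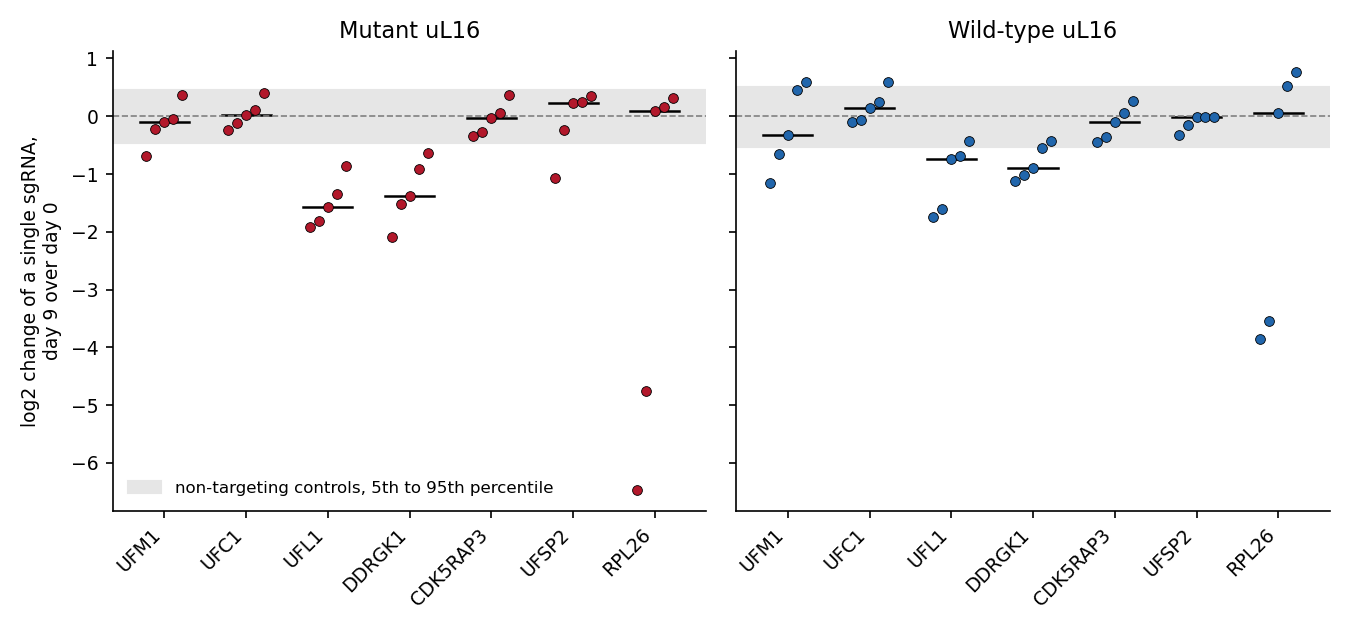
Log2 change, day 9 over day 0, of each kept sgRNA (points, sorted within a gene) with the gene's median (line) in mutant cells (left) and wild-type cells (right); the grey band is the 5th to 95th percentile of the non-targeting sgRNAs. All UFL1 and DDRGK1 sgRNAs lie below the band in mutant cells, while in wild-type cells the UFL1 sgRNA at -0.43 and the DDRGK1 sgRNA at -0.42 lie inside it, and 2 RPL26 sgRNAs lie far below the rest of that gene.

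The profile of a gene over the 8 libraries was compared with that of every other by the root mean squared difference of log2 CPM, each centred on its mean. UFL1 was nearest to COPS8, a subunit of the COP9 signalosome, at 0.073, then NUP160, a nuclear pore protein, at 0.075 and ACTR6 at 0.078, with DDRGK1 in rank 7 at 0.083. DDRGK1 was nearest to NUP160 at 0.060, then EFTUD1, the GTPase that helps release eIF6 from the large subunit, and COPS6, both at 0.071, with UFL1 in rank 6. UFM1 was nearest to WDR1, TGS1 and RTN4IP1, and UFC1 to C9orf37, MOGAT2 and DDX28. CDK5RAP3 was nearest to GSKIP, NFRKB and C8orf76, and UFSP2 to PMAIP1, GLTP and BTNL9. The nearest other member to any of these 4 was UFSP2, in rank 2207 for CDK5RAP3. Likeness is a description over 8 libraries that all genes share. It is made from the same values as the change in each line, so it is not separate evidence. The genes named as nearest to UFL1 and DDRGK1 changed by -1.40 to -1.15 in mutant cells and by -0.94 to -0.82 in wild-type cells.

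Related lists were described in the same way, by counts. Over all genes, 8.53% were lower in mutant cells and 8.7% in wild-type cells at an adjusted p under 0.05. Among UFM1 substrates and readers, including RPL26 and SAYSD1, a protein that recognises modified ribosomes at the translocon, 0 of 6 genes passed in either line by edgeR, and 0 had an unadjusted p under 0.05, against 17.3% of all genes in mutant cells and 19.5% in wild-type cells. RPL26 changed by 0.03 in mutant cells and 0.13 in wild-type cells, and SAYSD1 by 0.01 in mutant cells and -0.04 in wild-type cells. With limma on the mean log2 CPM of single sgRNAs, RPL26 passed in both lines, at -1.63 (adjusted p = 3.60e-05) in mutant cells and -1.08 (adjusted p = 0.00319) in wild-type cells. Of the Sec61 translocon and TRAP, 2 of 9 genes were lower in mutant cells and 3 in wild-type cells, with SEC61A1, the channel subunit, at -4.45 in mutant cells and -3.49 in wild-type cells. SEC61G, a small channel subunit, changed by -0.43 in mutant cells and -0.62 in wild-type cells, and SSR2, named after its values were seen, was the third in wild-type cells at -0.41.

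Ribosome-associated quality control of the large subunit had 2 of 7 genes lower in each line. The share of all genes beside this and the following counts was 8.53% in mutant cells and 8.7% in wild-type cells. NEMF, which marks stalled chains on the large subunit, changed by -1.45 in mutant cells and -0.60 in wild-type cells, and LTN1, the ubiquitin ligase of that route, by -1.26 in mutant cells and -0.76 in wild-type cells. Their differences between lines, -0.84 (adjusted p = 0.502) and -0.50 (adjusted p = 0.883), did not pass the test. In edgeR's direct comparison of the lines at day 9, 1 of the 7 genes was lower in mutant cells at an adjusted p under 0.05. Of all 18903 genes, 27 were. The lowest log2 value of the list in that comparison was -0.86. Of the other ubiquitin-like systems, NEDD8 conjugation had 2 of 9 genes lower in mutant cells and 3 in wild-type cells, SUMO conjugation 4 of 9 in each and URM1 conjugation 1 of 4 in each. The signal recognition particle and receptor had 4 of 8 genes lower in mutant cells and 3 in wild-type cells, the ER membrane protein complex 1 of 10 in each, EMC2, and the unfolded protein response 2 of 10 in each, MBTPS2 and HSPA5. ER-phagy receptors had 0 of 7 lower in each line. At an unadjusted p under 0.05 there were 0 in mutant cells (17.3% of all genes) and 3 in wild-type cells (19.5% of all genes). In wild-type cells 1 was higher, FAM134B at 0.39 (adjusted p = 0.0498), as were 164 of all 18903 genes. FAM134B had 34.5 and 26.4 CPM in wild-type cells at day 0, against 37.9 and 41.8 CPM at day 9.

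**Figure D4:**
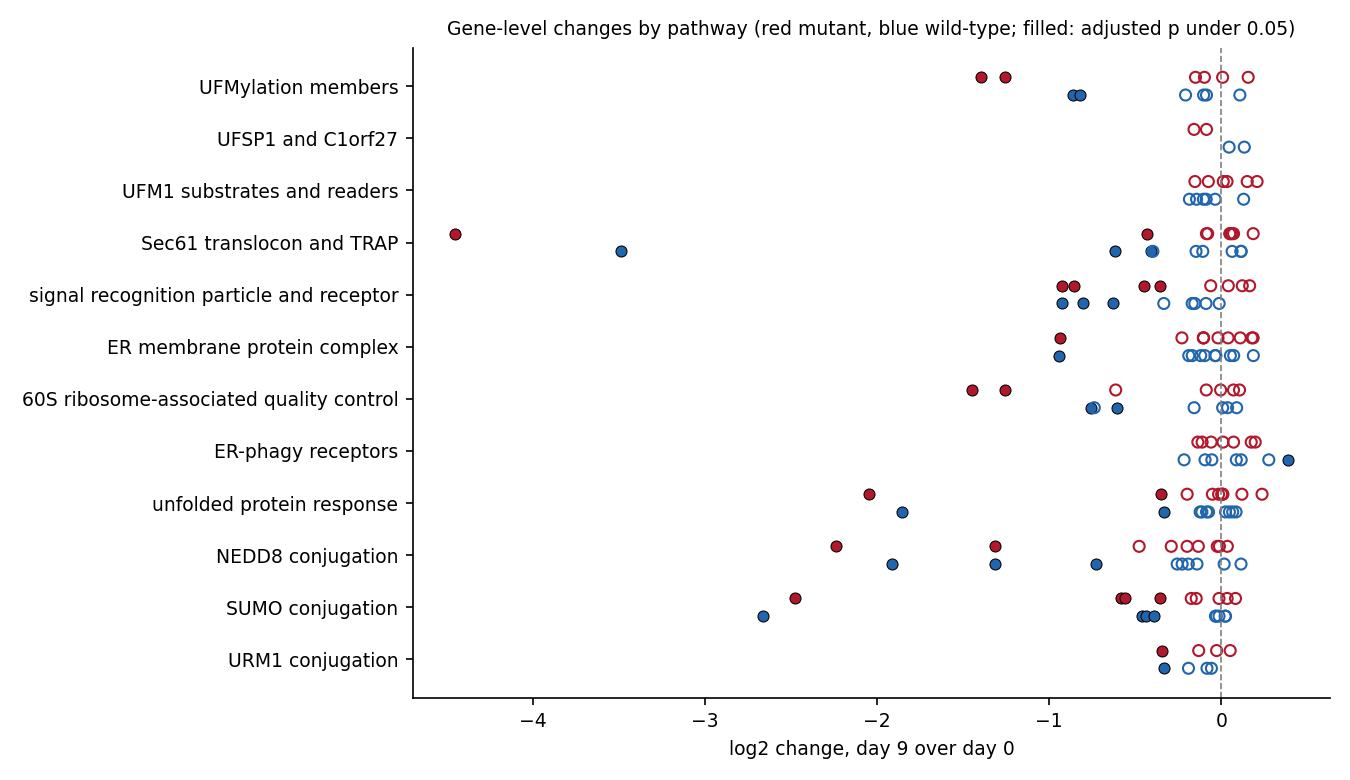
Log2 change of each gene, day 9 over day 0, by list, with mutant cells in red above wild-type cells in blue; filled points passed an adjusted p under 0.05. Of the 6 UFMylation genes the filled points are UFL1 and DDRGK1, at -1.40 and -1.26 in mutant cells and -0.86 and -0.82 in wild-type cells.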

How the data were processed

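The authors deposited a table of raw counts of reads per sgRNA, 1 column per library and no normalization. Per the file headers, bases 1 to 39 of each read were counted, forward only, against the human CRISPRi library. The submitters' processing notes name hg38, and no source used here names the counter. An sgRNA was kept at a mean count of at least 20 over the 8 libraries, and sgRNAs of a separate second promoter were left out of the gene sums, which left 95977. Kept counts were summed per gene, for genes with at least 3 sgRNAs, normalised by TMM and tested in R 4.3.3 with edgeR 4.0.16 (quasi-likelihood, 4 group means over all 8 libraries, 4 residual degrees of freedom). This test moderates the spread of each gene with that of all genes. Intervals and p-values therefore rest on more than those 4 degrees of freedom. Benjamini-Hochberg adjustment ran over all genes tested, or, for single sgRNAs, over all 102987 kept, second promoters included, with a threshold of 0.05. Alternatives included DESeq2 1.42.0 and limma 3.58.1 on mean log2 CPM (prior count 2), other scalings and filters, replicate blocks and leaving out each library. The procedure was tested on simulated data.

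The 6 genes, the lists and the settings were chosen with earlier results of these data known. Besides the 6, named genes are other UFMylation factors (1 item is not reported here), RPL26, SAYSD1 and ZNF574, up to 3 genes per list with the smallest p in the mutant change, neighbours within 1000 bases, and the 3 nearest profiles of each member.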

Additional observations from a re-analysis of the deposited data

Results flagged for a closer look

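The log2 change of UFSP2, day 9 over day 0, had opposite signs in the lines with no overlap of days, above 0 in both mutant libraries and below 0 in both wild-type libraries. The difference, mutant minus wild-type, was 0.26 (adjusted p = 0.890), and it turned to -0.05 with limma on the mean log2 CPM of single sgRNAs. Days were separated in opposite directions in this way for 4.17% of all genes. UFSP2 was -0.22 in mutant relative to wild-type cells at day 0 and 0.04 at day 9, neither past the test. UFSP1, the other UFM1 protease, had the opposite arrangement, with both mutant day 9 libraries below and both wild-type day 9 libraries above day 0, and its difference was -0.22 (adjusted p = 0.901). Neither passed edgeR's test of the difference over all genes, and what moves them was not tested.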

How the results depend on the processing

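The calls of UFL1 and DDRGK1 in each line held under all 20 alternatives, from -1.67 to -1.22 (UFL1) and -1.36 to -1.19 (DDRGK1) in mutant cells, and from -1.06 to -0.79 and -0.86 to -0.74 in wild-type cells. Leaving out single libraries moved the count of wild-type sgRNAs called lower between 2 and 6. At day 9, mutant against wild-type, DESeq2 called 2 of the 6 genes and the fit without each gene's most abundant sgRNA called 1; over all genes DESeq2 called 691 at day 9 and 47 in the difference, against 42 and 3, and the counts without wild-type day 9 replicate 1 were 134 and 18. Replicate numbers were not used as pairs in the main fit. Deviations of same-numbered libraries correlated weakly, none over 0.1, at 0.0480 between the days in mutant cells and 0.0257 in wild-type cells. Between the lines they correlated at -0.0039 to 0.0066. A replicate block within each line called 1864, 1972 and 9 of all genes for the mutant change, the wild-type change and the difference. The main fit called 1745, 1808 and 3. A replicate block shared by the lines left every count of the 6 genes as it was (2, 2, 0, 0 and 0). Its differences were -0.54 for UFL1 and -0.43 for DDRGK1. Scaling to control sgRNAs moved the median of all genes to -0.02 in both lines. The signs that turned belong to changes that did not pass the main test. Limma on mean log2 CPM gave -1.63 and -1.08 for RPL26 in mutant and wild-type cells, -0.11 for UFSP2 in mutant cells, -0.10 for UFSP2 at day 9, -0.055 for its difference and 0.065 for the difference of CDK5RAP3. Without the most abundant sgRNA, RPL26 in mutant cells was -0.18, UFC1 in mutant cells -0.043, UFM1 in the difference -0.0057 and UFSP2 at day 9 -0.0031. With 1 of overlapping sgRNAs, chosen after seeing the data, UFC1 was -0.0051 in mutant cells and 0.027 at day 9, and scaled to control sgRNAs it was -0.024 in mutant cells. Leave-one-out values for CDK5RAP3 ran from -0.19 to 0.00023 in mutant cells, -0.20 to 0.039 in wild-type cells, -0.14 to 0.10 in the difference and -0.20 to 0.037 at day 0. For UFC1 they ran from -0.10 to 0.12 in mutant cells, -0.21 to 0.0094 in the difference, -0.12 to 0.095 at day 9 and -0.015 to 0.20 at day 0. For UFM1 they ran from -0.041 to 0.15 in the difference and -0.020 to 0.17 at day 9, for DDRGK1 from -0.017 to 0.099 at day 0, and for RPL26 in mutant cells from -0.083 to 0.14; the causes were not tested. Having 2 libraries a group limits the precision of every value.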

Other observations

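RPL26, the best known UFM1 substrate, had sgRNAs that did not go together. Of its 5 sgRNAs, 2 had few counts (means of 69.9 and 30.4). These 2 lie at 31 and 36 bases from the first on the same strand, so they overlap. They changed by -4.76 (adjusted p = 0.00160) and -6.46 (adjusted p = 0.0145) in mutant cells, and by -3.86 (adjusted p = 0.00472) and -3.54 (adjusted p = 0.167) in wild-type cells. The other 3 changed by 0.09 to 0.31 in mutant cells and by 0.06 to 0.77 in wild-type cells. The sgRNA with a mean count of 30.4 had 0 counts in 1 mutant library at day 9 and 0.0099 CPM in the other. Its fitted value in mutant cells therefore rests on very few reads at day 9. Summed counts weight the abundant sgRNAs, and the gene-level change was 0.03 in mutant cells and 0.13 in wild-type cells. Limma on log2 CPM averaged over sgRNAs weights them equally, so the overlapping pair counts as 2 of the 5. This limma fit gave -1.63 (adjusted p = 3.60e-05) in mutant cells and -1.08 (adjusted p = 0.00319) in wild-type cells.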
